A study of Mus musculus with 6 samples.

Results

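The transcripts described here encode TGF-beta family ligands and the latent binding proteins that hold TGF-beta in the matrix. They are 10 genes chosen by symbol: the TGF-beta isoforms Tgfb1, Tgfb2 and Tgfb3, the bone morphogenetic proteins Bmp2, Bmp4 and Bmp6, the activin subunit gene Inhbb, and the latent binders Ltbp1, Ltbp3 and Ltbp4. All 10 were among the 24421 genes of the count table, and all 10 passed the filter on low counts, which left 14362 genes. The libraries were made from retinal endothelial cells of mice on a mixed BL6/CD1 background, given tamoxifen on postnatal day 1 and sampled on postnatal day 7. In the 3 Smad4-iECKO samples, floxed Smad4 was combined with Cdh5-CreERT2, a tamoxifen-inducible Cre recombinase under an endothelial promoter. The 3 Smad4f/f samples had the same floxed alleles and no Cre. The labels do not state whether a sample was 1 pup or a pool of pups, so the spread behind each p-value is that among these libraries and may be partly technical.

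TGF-beta is secreted in a latent form, wrapped in its own propeptide and tied by a latent TGF-beta binding protein to fibrillin and fibronectin fibres, from which integrins, proteases or thrombospondin release it. Released TGF-beta and activins signal through one branch of receptor SMADs and BMPs through another, and SMAD4 joins the complexes of both branches. In the retina these ligands come from neurons, glia, mural cells, microglia and the endothelium, and the endothelial response to BMP restrains vessel overgrowth and arteriovenous shunts. The ligand genes therefore lie upstream of the deleted gene, and the comparison asked whether their own transcripts differed when the endothelium had lost Smad4.

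Sequencing depth was 2233360 counts in Smad4-iECKO replicate 2 and 12633018 to 23164952 counts in the other 5 libraries. A count of 3, taken as the limit that a count of 0 allows, corresponded to 1.39 CPM (TMM-scaled counts relative to library size) in that shallow library and to 0.123 to 0.239 CPM in the others. Such limits cover counting error only. All 20 genes of the endothelial marker list had reads in every library, with a summed level of 3450, 7313 and 5624 CPM in Smad4-iECKO replicates 1, 2 and 3 and 9792, 1973 and 5977 CPM in Smad4f/f replicates 1, 2 and 3. The 12 rod photoreceptor markers summed to 7651 to 11575 CPM in the Smad4-iECKO libraries and 7182 to 13837 CPM in the Smad4f/f libraries, so neural retina was present in all of them. Smad4 itself was at 93.9 to 133.9 CPM in Smad4-iECKO, against 109.5 to 157.5 CPM in Smad4f/f libraries. A count per gene does not separate the floxed exons, and it therefore does not check the genotype labels.

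No ligand or latent binder was called by edgeR's quasi-likelihood test at a Benjamini-Hochberg adjusted p under 0.05, and 0 of the 14362 genes tested were (0%). DESeq2 with each sample entered once called 12 genes (0.0705%) and limma-voom with quality weights 8 (0.0557%), none of them among the 10. Ltbp3, Tgfb3, Inhbb and Tgfb1 had the highest ratios of mean levels, 1.74, 1.56, 1.90 and 1.85 for Smad4-iECKO over Smad4f/f. Ltbp3 was the only 1 of the 10 with an unadjusted edgeR p under 0.05, a threshold that 188 genes (1.31%) reached. Ltbp3 and Tgfb3 were the 2 members whose lowest Smad4-iECKO level exceeded their highest Smad4f/f level, a pattern seen in 357 of the genes tested (2.49%). None was lower without overlap, against 2.83% of genes. Log2 fold changes were above 0 for 9 of 10 members, with a median of 0.55, beside 48.2% of all genes and a median of -0.017. The 10 genes were picked with results of these data known, and they share libraries, so this count is a description.

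**Figure D1:**
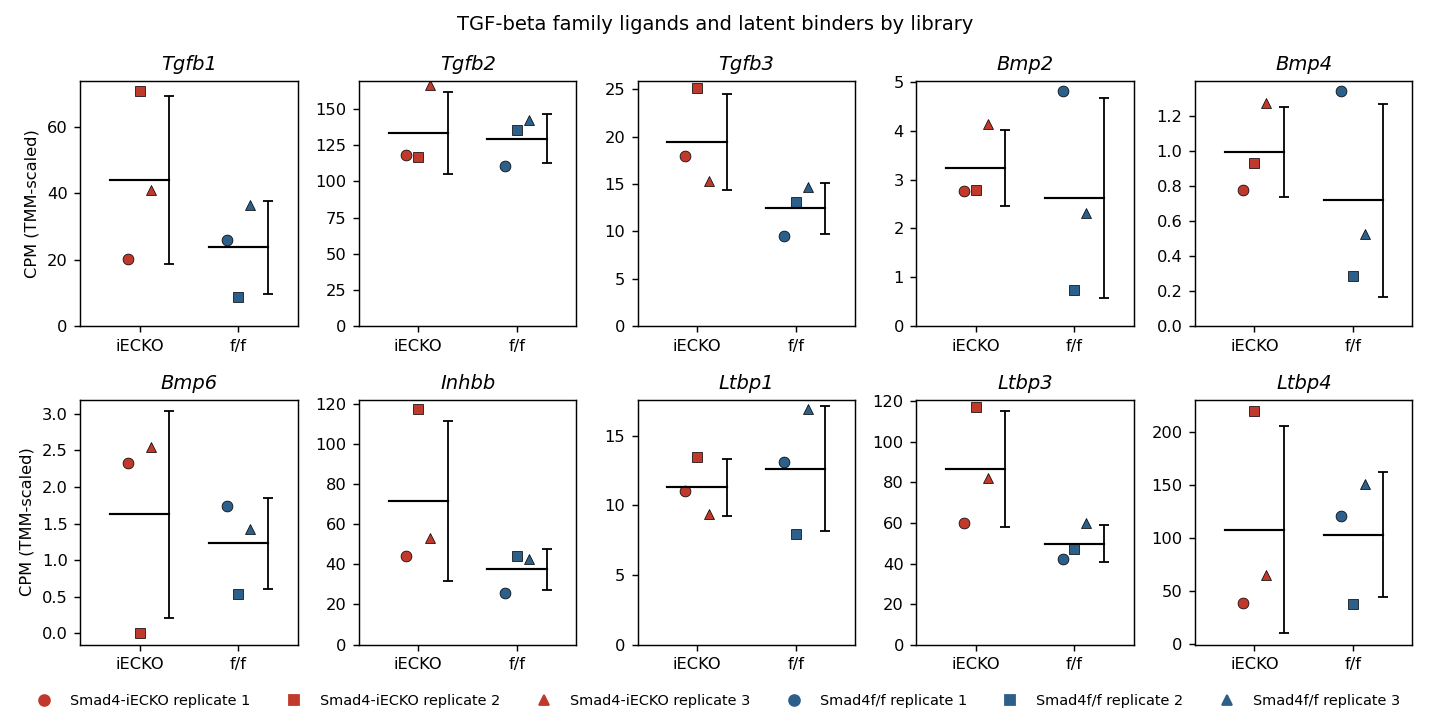
Level of each of the 10 genes in CPM (TMM-scaled) in the 3 Smad4-iECKO libraries (left) and the 3 Smad4f/f libraries (right); symbols mark the replicate, horizontal lines the mean and bars 1 SD. In the Ltbp3 and Tgfb3 panels the 2 sets of points do not overlap, and Smad4-iECKO replicate 2 (squares) lies highest for Tgfb1, Tgfb3, Inhbb, Ltbp3 and Ltbp4.

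Tgfb2 (chromosome 1, 186622792 to 186705989, minus strand, mm10), the isoform known for its roles in eye and heart development, differed least between libraries. It was at 118.1, 116.7 and 166.3 CPM in Smad4-iECKO replicates 1, 2 and 3, against 110.3, 135.4 and 142.4 CPM in the Smad4f/f replicates 1, 2 and 3. The groups overlapped throughout, and the log2 fold change was 0.05 (standard error 0.28; edgeR unadjusted p 0.868).

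Tgfb1 (chromosome 7, 25687002 to 25705077, plus strand), an isoform made by many cell types including microglia and stored in platelets, varied most among the TGF-beta genes. Its levels were 20.1, 70.7 and 41.1 CPM in Smad4-iECKO replicates 1, 2 and 3, against 26.0, 8.72 and 36.5 CPM in the Smad4f/f replicates 1, 2 and 3. The highest library was a Smad4-iECKO one and the lowest a Smad4f/f one, but Smad4-iECKO replicate 1 lay below 2 of the 3 Smad4f/f libraries. The log2 fold change of 0.87 had a standard error of 0.59 (edgeR, unadjusted p = 0.172).

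Tgfb3 (chromosome 12, 86056745 to 86079041, minus strand) encodes the remaining isoform, best known from palate and lung development. It was at 17.9, 25.1 and 15.3 CPM in Smad4-iECKO replicates 1, 2 and 3, against 9.46, 13.1 and 14.7 CPM in the Smad4f/f replicates 1, 2 and 3. The groups did not overlap, although Smad4-iECKO replicate 3 and Smad4f/f replicate 3 were close. The log2 fold change was 0.63 (standard error 0.38; edgeR unadjusted p 0.130), and 54 reads carried the value of the shallow Smad4-iECKO replicate 2.

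Inhbb (chromosome 1, 119415465 to 119422248, minus strand) encodes the beta B subunit of activin B. It was at 44.2, 117.6 and 52.9 CPM in Smad4-iECKO replicates 1, 2 and 3, against 25.8, 44.2 and 42.8 CPM in the Smad4f/f replicates 1, 2 and 3. Smad4-iECKO replicate 1 and Smad4f/f replicate 2 held the same level to 3 digits, and Smad4-iECKO replicate 2 alone stood far above the rest. The log2 fold change was 0.92 (standard error 0.43; edgeR unadjusted p 0.0611).

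The BMP genes were scarce. Bmp2 (chromosome 2, 133552159 to 133562885, plus strand) was at 2.78, 2.79 and 4.15 CPM in Smad4-iECKO replicates 1, 2 and 3, against 4.81, 0.741 and 2.32 CPM in the Smad4f/f replicates 1, 2 and 3. Bmp4 (chromosome 14, 46383520 to 46390669, minus strand), which patterns the dorsal retina in the embryo, was at 0.778, 0.930 and 1.28 CPM in Smad4-iECKO libraries and 1.34, 0.288 and 0.524 CPM in Smad4f/f libraries, in the same order. In both genes Smad4f/f replicate 1 was highest and Smad4f/f replicate 2 lowest, with the Smad4-iECKO libraries between them. Bmp6 (chromosome 13, 38345107 to 38500302, plus strand), an endothelial ligand known for its role in iron balance, was at 2.33, 0 and 2.55 CPM in Smad4-iECKO libraries and 1.73, 0.535 and 1.42 CPM in Smad4f/f libraries. The 0 in Smad4-iECKO replicate 2 allows a level of up to 1.39 CPM. This range holds the Smad4f/f replicate 2 value, so a difference from that library was not detectable at this depth. The other Smad4f/f values, 1.73 and 1.42 CPM, lie above the range, which covers counting error only. Bmp2, Bmp4 and Bmp6 rested on 6, 2 and 0 reads in that library. Their log2 fold changes were 0.33, 0.51 and 0.59, with standard errors of 0.76, 0.90 and 0.94 (edgeR, unadjusted p = 0.673, 0.585 and 0.551).

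Among the latent binders Ltbp3 (chromosome 19, 5740904 to 5758532, plus strand), which carries latent TGF-beta and is needed for bone and tooth development, had the smallest p of the 10 genes. It was at 60.1, 117.1 and 82.4 CPM in Smad4-iECKO replicates 1, 2 and 3, against 42.2, 47.0 and 60.0 CPM in the Smad4f/f replicates 1, 2 and 3. The groups did not overlap, but Smad4-iECKO replicate 1 and Smad4f/f replicate 3 were separated by less than either group's spread. Mean levels stood at 86.6 ± 28.7 and 49.7 ± 9.21 CPM (SD, n = 3 each), and the log2 fold change was 0.79 (standard error 0.33, edgeR unadjusted p = 0.0402, adjusted p = 0.9999). Without Smad4-iECKO replicate 2 its unadjusted edgeR p was 0.0915. Bmp6 shares 224 bp of exon with Txndc5 on the opposite strand, and the library reagents do not mark strand. Txndc5 was at 104.1 to 129.0 CPM in Smad4-iECKO and 91.7 to 119.4 CPM in Smad4f/f libraries, against at most 2.55 CPM for Bmp6. Likewise, Tgfb2, Tgfb3 and Bmp4 share stretches of 80 to 257 bp with predicted genes. The part of such shared stretches in the counts was not tested.

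Ltbp4 (chromosome 7, 27305136 to 27337692, minus strand), a latent binder also needed for elastic fibres, spread over the widest range of the binders. It was at 39.0, 219.9 and 64.7 CPM in Smad4-iECKO replicates 1, 2 and 3, against 120.4, 37.4 and 151.1 CPM in the Smad4f/f replicates 1, 2 and 3. The highest library and the second lowest were both Smad4-iECKO, and the log2 fold change was 0.05 (standard error 0.68; edgeR unadjusted p 0.939). Ltbp1 (chromosome 17, 75005568 to 75392512, plus strand), the founding member of the binders, was at 11.1, 13.5 and 9.41 CPM in Smad4-iECKO, against 13.1, 7.94 and 16.9 CPM in the Smad4f/f replicates 1, 2 and 3. It alone had a mean below that of Smad4f/f, with a log2 fold change of -0.17 and a standard error of 0.42 (edgeR, unadjusted p = 0.695).

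Promoter sequences were available in the RefSeq table (GRCm38.p6) for 8 of the 10 genes, with Bmp2 and Tgfb3 unmatched. Shown are those of Ltbp3 and Inhbb, the binder and the ligand with the smallest p, and of Tgfb2, the ligand that differed least between libraries. Each runs 5′ to 3′ on the gene's strand from 250 bases before to 50 after its start, with the SMAD-binding pentamer CAGAC or its reverse complement GTCTG in capitals. They lie at chr19:5740650-5740949 (plus strand), chr1:119422199-119422498 (minus strand) and chr1:186705940-186706239 (minus strand).
Ltbp3: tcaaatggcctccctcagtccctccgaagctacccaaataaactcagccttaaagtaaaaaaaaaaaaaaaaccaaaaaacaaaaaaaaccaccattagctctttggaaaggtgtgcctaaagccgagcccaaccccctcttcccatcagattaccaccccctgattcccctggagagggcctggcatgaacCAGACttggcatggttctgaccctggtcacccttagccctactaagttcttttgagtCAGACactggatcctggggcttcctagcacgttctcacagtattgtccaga
Inhbb: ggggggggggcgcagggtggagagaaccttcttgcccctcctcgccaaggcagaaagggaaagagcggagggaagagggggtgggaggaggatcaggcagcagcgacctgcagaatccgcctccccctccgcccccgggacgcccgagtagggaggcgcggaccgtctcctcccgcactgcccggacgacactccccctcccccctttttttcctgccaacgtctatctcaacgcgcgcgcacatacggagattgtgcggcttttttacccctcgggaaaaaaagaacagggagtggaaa
Tgfb2: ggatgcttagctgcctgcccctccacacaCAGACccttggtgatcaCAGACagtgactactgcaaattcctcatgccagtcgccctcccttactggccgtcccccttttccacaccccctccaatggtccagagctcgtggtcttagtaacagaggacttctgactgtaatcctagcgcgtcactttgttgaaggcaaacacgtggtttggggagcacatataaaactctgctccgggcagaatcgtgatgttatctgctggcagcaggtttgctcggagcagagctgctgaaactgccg
Ltbp3 held the pentamer at 2 places, -58 and -1 from the start, and Tgfb2 at 2, -221 and -204, while Inhbb held none. It was found in 4 of the 8 genes with a sequence, beside 49.6% of all 32851 promoters in the table. The 8 genes had 11 promoters, and a gene was counted if any of its promoters held the element searched for. A share of genes and a share of promoters are unlike units, so the pentamer was near the background only in a rough comparison. The BMP-type element GGCGCC, a palindrome searched for alike, was in 1 of the 8 genes (Ltbp4) and in 11.9% of all promoters. The 8-letter palindrome GTCTAGAC was in none of them and in 0.213% of all promoters. A match is a string of letters and not a shown binding site, and the window leaves out distal elements.

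Per exon length, Tgfb2 was the most abundant of the 10 transcripts. Levels in RPKM (CPM per kilobase of exon, with GENCODE M21 exon lengths and TMM-scaled libraries) averaged 23.1 ± 4.88 for Tgfb2 in Smad4-iECKO, and 22.3 ± 2.91 in Smad4f/f (SD, n = 3 each). Over all 6 libraries the order was Tgfb2, Ltbp4, Inhbb, Ltbp3, Tgfb1, Tgfb3, Ltbp1, Bmp2, Bmp4 and Bmp6. Tgfb2 exceeded Ltbp4 in 5 of 6 libraries, the exception being Smad4-iECKO replicate 2. The neighbours Ltbp4 and Inhbb changed places, with Ltbp4 above in 3 of 6, and so did Ltbp3 and Tgfb1, with Ltbp3 above in 3 of 6. Tgfb3 lay above Ltbp1 and Bmp2 above Bmp4 in all 6, and Bmp4 above Bmp6 in 2 of 6. The whole range ran from 22.7 RPKM for Tgfb2 to 0.366 RPKM for Bmp6 as means of the 6 libraries.

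**Figure D2:**
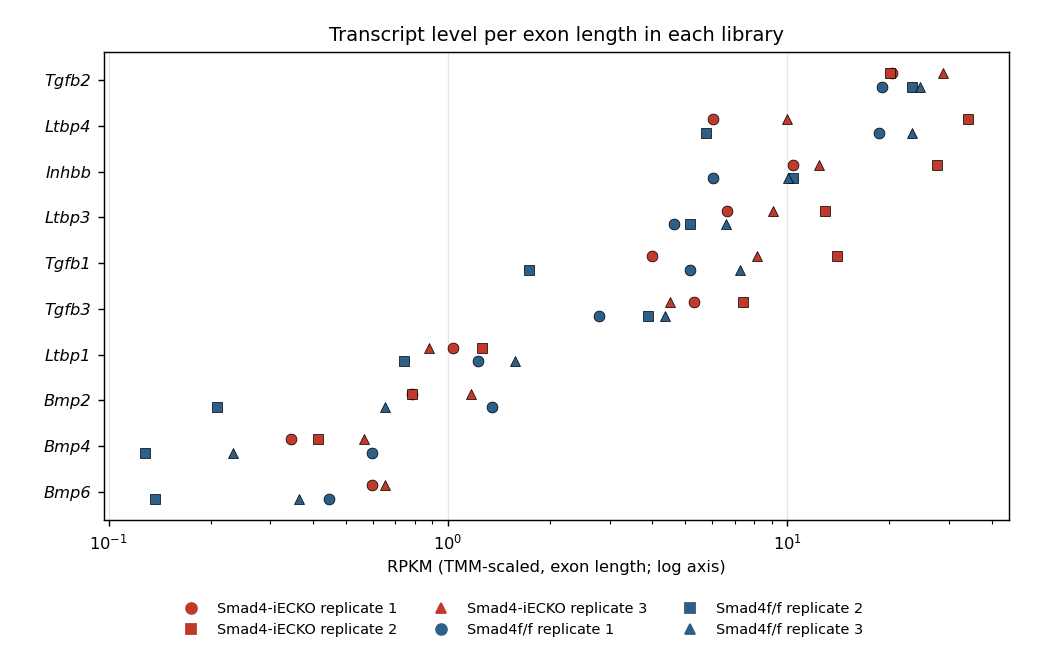
RPKM (TMM-scaled counts per kilobase of exon, log axis) of the 10 genes in each Smad4-iECKO and Smad4f/f library, ordered from the highest mean (Tgfb2, 22.7 RPKM) to the lowest (Bmp6, 0.366 RPKM). The Bmp6 point of Smad4-iECKO replicate 2, at 0, cannot be drawn on the log axis; Tgfb2 is the tightest row.

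Tgfb2 made up the larger part of the TGF-beta isoform RNA in all but 1 library. Its share of the summed RPKM of the isoforms was 68.7%, 48.5% and 69.4% in Smad4-iECKO replicates 1, 2 and 3, against 70.5%, 80.7% and 67.9% in Smad4f/f replicates 1, 2 and 3. Tgfb1 held 13.4%, 33.7% and 19.7% in Smad4-iECKO and 19.1%, 5.97% and 20.01% in Smad4f/f replicates, so the lowest and the highest Tgfb2 shares were in the 2 libraries with title prefix 40 (Smad4-iECKO replicate 2 and Smad4f/f replicate 2). Among the binders Ltbp3 held 48.4%, 26.8% and 45.5% in Smad4-iECKO and 18.98%, 44.3% and 20.9% in Smad4f/f replicates, with Ltbp4 taking most of the rest. Shares of both families overlapped between the groups for every gene. Smad4f/f replicate 2, with the lowest endothelial sum, had binder shares close to those of Smad4-iECKO replicates 1 and 3.

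The endothelial content of the libraries differed, and the members did not share 1 pattern along it. From the lowest to the highest endothelial sum, the libraries were Smad4f/f replicate 2, Smad4-iECKO replicates 1 and 3, Smad4f/f replicate 3, Smad4-iECKO replicate 2 and Smad4f/f replicate 1. In that order Tgfb1 was at 8.72, 20.1, 41.1, 36.5, 70.7 and 26.0 CPM and Ltbp4 at 37.4, 39.0, 64.7, 151.1, 219.9 and 120.4 CPM. Both genes were lowest in the library with the least endothelial RNA and highest in the one with the second largest amount. In the library with the most, Ltbp4 was at 120.4 CPM, below only Smad4-iECKO replicate 2 and Smad4f/f replicate 3. Tgfb1 was there at 26.0 CPM, below both of these and Smad4-iECKO replicate 3. Tgfb3, Inhbb and Ltbp3 were at their lowest in that most endothelial library, Smad4f/f replicate 1, at 9.46, 25.8 and 42.2 CPM. In bulk samples, fewer cells of a type and less RNA per cell cannot be told apart. With library sizes scaled to the endothelial list, no member was called (edgeR adjusted p = 0.9999 for each) and the standard errors were 0.88 to 1.37. Log2 fold changes were then 0.79 for Tgfb1, 0.25 for Inhbb, 0.33 for Ltbp3, 0.18 for Tgfb3, -0.38 for Tgfb2 and -0.098 for Ltbp4, with a median over all genes of -0.35. Ltbp1 was at -0.28. Bmp2, Bmp4 and Bmp6 were at 0.63, 0.68 and 0.79, above their values of 0.33, 0.51 and 0.59 without this scaling. Against 1000 reads of the endothelial list, Ltbp3 had 17.4, 16.02 and 14.7 reads in Smad4-iECKO and 4.31, 23.8 and 10.04 reads in Smad4f/f replicates 1, 2 and 3. On this scale the Smad4-iECKO libraries lay within the Smad4f/f range, and all 10 members overlapped between the groups.

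**Figure D3:**
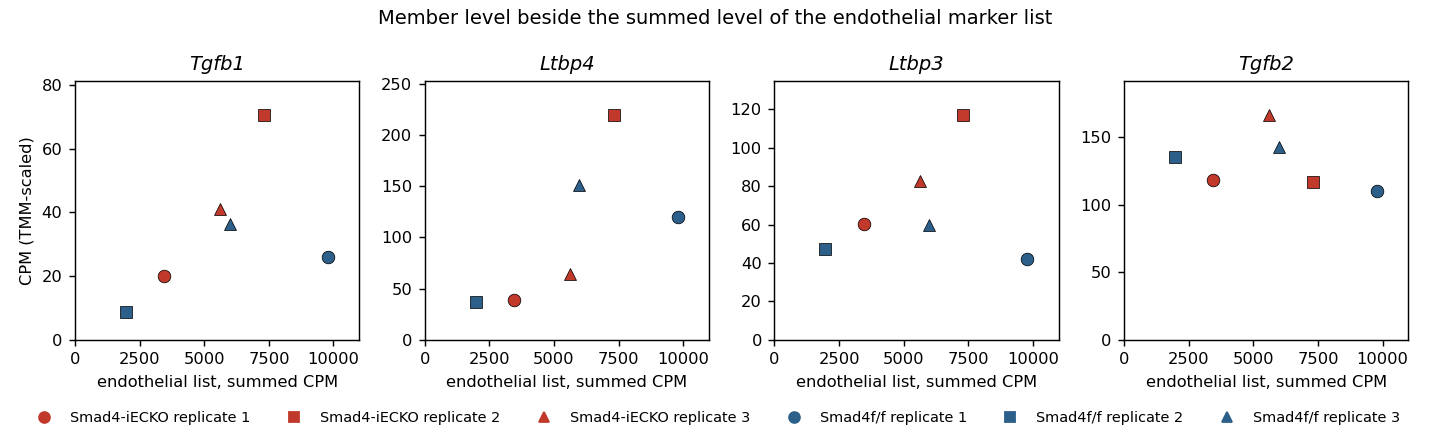
Level of Tgfb1, Ltbp4, Ltbp3 and Tgfb2 in CPM against the summed CPM of the 20 endothelial markers in each Smad4-iECKO (red) and Smad4f/f (blue) library. Tgfb1 and Ltbp4 are lowest at the smallest endothelial sum (1973 CPM, Smad4f/f replicate 2), and Tgfb2 stays between 110.3 and 166.3 CPM along the axis.

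Markers of other cell types also differed between libraries, and their part in the levels of the ligands was not tested. Of 15 tested microglia and macrophage markers, 13 had log2 fold changes above 0 and none was called by edgeR. Their summed level was 123.2 to 178.6 CPM in Smad4-iECKO, above the 63.1 to 120.5 CPM of Smad4f/f, and C1qa, P2ry12 and Cd14 had 0 reads in Smad4-iECKO replicate 2, as Cd14 had in Smad4f/f replicate 1. Fibroblast markers (5 of 7 tested above 0) summed to 387 to 887 CPM in Smad4-iECKO, against 126 to 526 CPM in Smad4f/f, highest in Smad4-iECKO replicate 2, while Lum and Dpt had no read in any library. Pericyte and smooth muscle markers (7 of 12 above 0) summed to 1136 to 2097 CPM in the Smad4-iECKO and 635 to 2921 CPM in the Smad4f/f libraries. Astrocyte markers (6 of 8 above 0) summed to 382 to 983 CPM in Smad4-iECKO, against 380 to 608 CPM in Smad4f/f. Mueller glia markers (7 of 10 above 0) summed to 1316 to 2359 CPM in Smad4-iECKO, against 1099.9 to 2347 CPM in Smad4f/f. Platelet markers, 1 of 7 tested, summed to 5.55 to 10.7 CPM in Smad4-iECKO, against 3.66 to 7.56 CPM in Smad4f/f, so these cells were near the detection limit. Ganglion cell (4 of 10 above 0), amacrine and horizontal cell (4 of 10) and pigment epithelium markers (4 of 5) had no call either.

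Sample titles carry the prefix 38 (2 libraries per group) or 40 (1 per group), which the labels do not explain. Within prefix 38 the log2 fold change was 0.47 for Ltbp3, 0.45 for Tgfb3 and 0.49 for Inhbb, and -0.048 for Tgfb1 (edgeR, 2 against 2 libraries, no call). For Ltbp4 it was -1.40 (standard error 0.32, edgeR unadjusted p = 0.00301, adjusted p = 0.816): both Smad4-iECKO libraries, at 39.0 and 64.7 CPM, lay below both Smad4f/f libraries, at 120.4 and 151.1 CPM. The prefix 40 pair allows no test, and its log2 ratios, Smad4-iECKO over Smad4f/f, were 2.56 for Ltbp4, 3.02 for Tgfb1, 1.41 for Inhbb, 1.32 for Ltbp3 and 0.94 for Tgfb3. The endothelial sums of that pair were 7313 and 1973 CPM, a difference that these ratios contain. Ltbp4 thus had opposite signs within the prefixes, and so did Tgfb1. The same held for Ltbp1 (-0.56 in prefix 38 and 0.76 in prefix 40), Bmp2 (-0.064 and 1.91) and Tgfb2 (0.16 and -0.22). The difference between the prefixes was not tested.

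Smad4-iECKO replicate 2, the shallow library, carried much of the size of the differences. Without it the log2 fold change was 0.34 for Inhbb, 0.35 for Tgfb1, 0.39 for Tgfb3, 0.49 for Ltbp3 and -1.01 for Ltbp4. Without Smad4f/f replicate 1, Bmp2 was at 1.11 and Bmp4 at 1.31, and without Smad4f/f replicate 2 they were at -0.13 and 0.10. Bmp2 and Bmp4 thus had their extremes without a Smad4f/f library. Bmp6 moved as much with libraries of either group, with 0.99 and 0.21 when Smad4-iECKO replicates 2 and 3 were left out in turn, and 0.91 and 0.19 when Smad4f/f replicates 1 and 2 were. With limma-voom and quality weights on all 6 libraries, Inhbb was at 0.24, Tgfb1 at 0.21, Tgfb3 at 0.30 and Ltbp3 at 0.36. Ltbp3, Tgfb3, Inhbb, Tgfb1, Bmp4 and Bmp6 were above 0 in all 6 fits that left out 1 library, and no member was called in any of them.

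**Figure D4:**
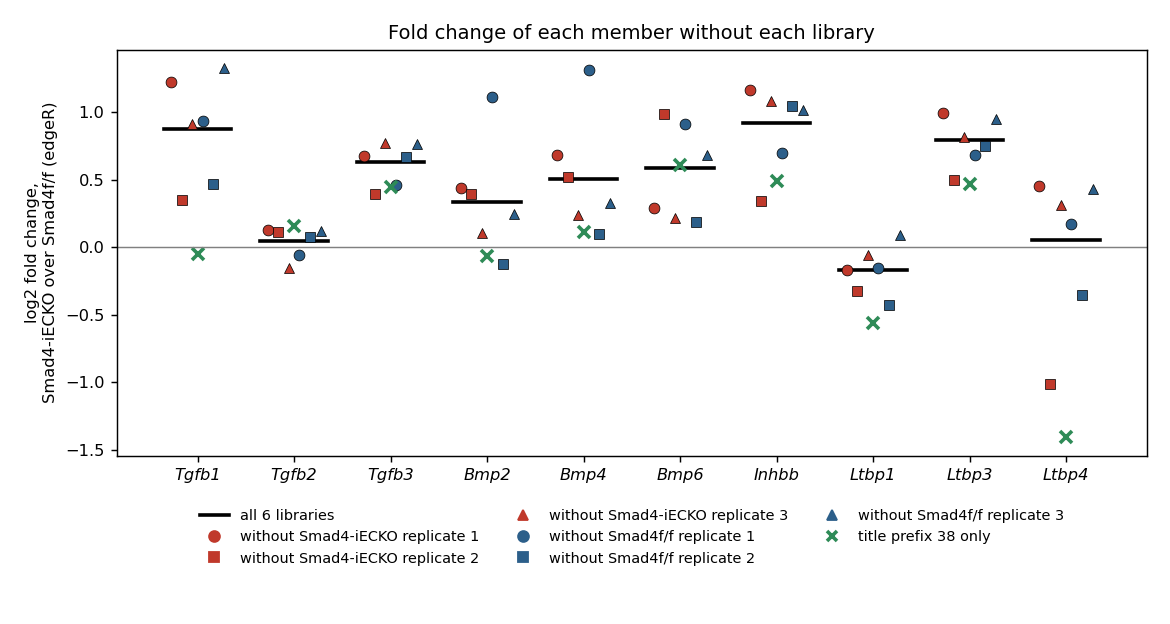
Log2 fold change (Smad4-iECKO over Smad4f/f, edgeR) of each gene with all 6 libraries (black line), without each library in turn (red, a Smad4-iECKO library left out; blue, a Smad4f/f library left out) and in the 4 libraries with title prefix 38 (cross). Ltbp4 moves from 0.05 to -1.01 without Smad4-iECKO replicate 2, and the Ltbp3 points lie between 0.49 and 0.99.

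For the genes described, the authors' deposited table gave adjusted p-values of 6.02e-05 for Ltbp3, 0.00104 for Tgfb3 and 0.00443 for Inhbb, each higher in Smad4-iECKO. Of 14225 genes with an adjusted p in the authors' deposited table, 13.4% had one under 0.05, and 7.7% were also higher. The other 7 members had adjusted p-values of 0.0763 (Tgfb1) to 0.916 (Ltbp4) in the authors' deposited table, with none given for Bmp4. The count table holds each sample in 3 columns with identical values. A DESeq2 fit with all 18 columns, as if they were 18 samples, called 12.1% of genes (7.28% as higher) and the same 3 members, with adjusted p-values of 7.26e-05, 0.00158 and 0.00473 for Ltbp3, Tgfb3 and Inhbb. With each sample entered once, DESeq2 gave the 3 genes log2 fold changes of 0.80, 0.63 and 0.93 and an adjusted p of 0.9997. Log2 fold changes from the 18 columns were similar, at 0.80, 0.60 and 0.93, whereas standard errors over the 10 genes were 1.55 to 3.05 times larger with each sample entered once. How the authors fitted their table is not given in the sources used here.

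**Figure D5:**
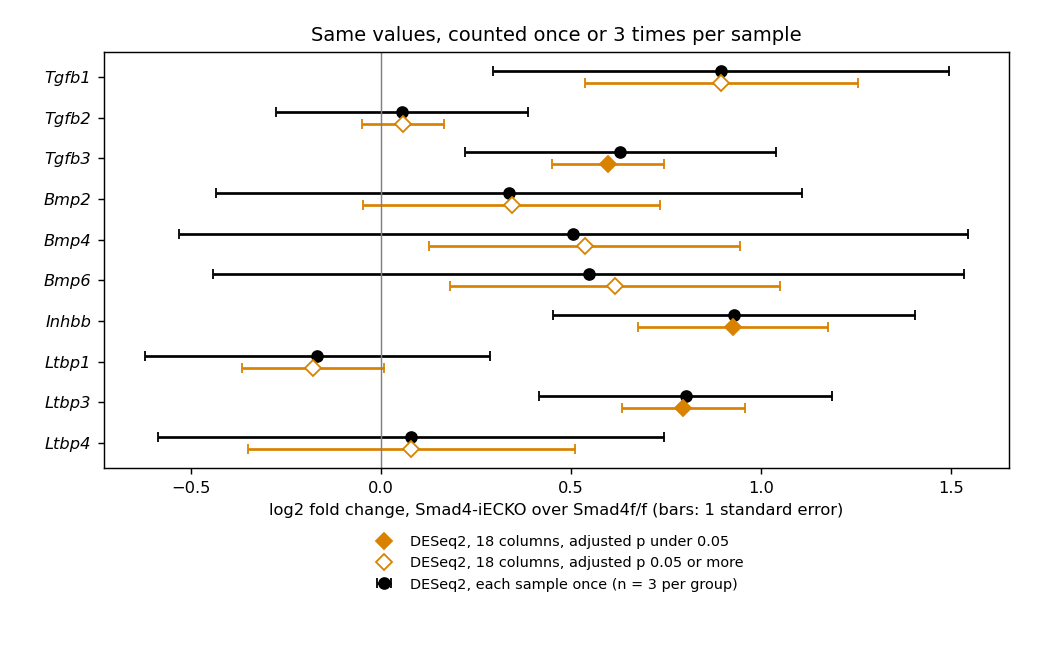
DESeq2 log2 fold change (Smad4-iECKO over Smad4f/f) of the 10 genes with each of the 6 samples entered once (black circles) and with all 18 columns entered (orange diamonds, filled where the adjusted p was under 0.05); bars are 1 standard error. Positions nearly coincide, the orange bars are shorter for every gene, and the filled diamonds are Ltbp3, Tgfb3 and Inhbb.

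Genes that act with the ligands outside the cell were also compared. Of 26 tested genes for latency, matrix tethering and activation, 19 had log2 fold changes above 0 (median 0.25) and 5 an unadjusted p under 0.05, none called by edgeR. Over all genes tested, 48.2% were above 0 and 1.31% had an unadjusted edgeR p under 0.05. Thbs1, the thrombospondin that activates latent TGF-beta, was at 65.9 ± 12.997 CPM in Smad4-iECKO, against 11.4 ± 3.81 CPM in Smad4f/f (SD, n = 3 each). The fibrillin gene Fbn2, to whose fibres latent complexes bind, was at 58.96 ± 14.96 and 31.1 ± 6.13 CPM, and the proprotein convertase gene Pcsk6 at 29.4 ± 8.82 and 13.7 ± 4.28 CPM, in the same order. These 3 genes were named because they had the smallest p of the list, and neither group overlapped the other for them. In the list 4 of 26 genes were higher in Smad4-iECKO without overlap, beside 2.49% of all genes tested. The edgeR adjusted p-values were 0.864 for Thbs1 and 0.9999 for Fbn2 and Pcsk6. DESeq2 called Thbs1, with an adjusted p of 2.03e-06. Of 26 further ligand genes, 9 were tested, 4 above and 5 below 0 (median -0.063). The leading ones were Bmp7, at 8.21 ± 3.94 CPM in Smad4-iECKO, against 4.77 ± 1.96 CPM in Smad4f/f, Inha, which encodes the inhibin alpha subunit (14.2 ± 7.09 and 10.2 ± 3.10 CPM), and Bmp5 (3.09 ± 2.72 and 6.10 ± 6.28 CPM). Gdf2 and Bmp10, singled out here because they encode the circulating BMPs that activate endothelial ALK1, had at most 3 reads in a Smad4-iECKO library and at most 5 in a Smad4f/f library.

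Secreted inhibitors, receptors and SMADs showed no common direction. Of 13 tested inhibitors 6 were above 0 (median -0.032), led by Kcp (31.4 ± 29.2 CPM in Smad4-iECKO, against 62.8 ± 38.1 CPM in Smad4f/f), Crim1 (142.5 ± 34.4 and 93.5 ± 49.3 CPM) and Chrdl1 (2.39 ± 2.07 and 5.33 ± 2.58 CPM). Kcp and Crim1 encode cysteine-rich BMP-binding proteins and Chrdl1 a chordin relative, and all 3 overlapped between the groups. Of 14 receptors and co-receptors 6 were above 0 (median -0.10), with Bmpr1b, Acvr2b and the pseudoreceptor gene Bambi at the smallest p, from 0.219 to 0.356 (edgeR, unadjusted). Of 18 SMADs and regulators 7 were above 0 (median -0.16), led by the inhibitory Smad6 (30.6 ± 26.0 and 13.5 ± 4.41 CPM), the repressor gene Ski (218.2 ± 116.2 and 158.1 ± 38.01 CPM) and Tgif1 (9.74 ± 1.38 and 14.4 ± 8.64 CPM). Each of these also overlapped.

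Target genes of both branches were measured, and the difference between the branches was not tested. Of 22 tested TGF-beta and activin targets, 19 had log2 fold changes above 0 (median 0.59) and 5 an unadjusted p under 0.05, and of 18 BMP targets 8 were above 0 (median -0.13) and none reached it. Over all genes tested these shares were 48.2% and 1.31% (edgeR). The lists are not separate, since Tgfbi, Fn1 and Ltbp2 are also among the latency genes and Smad7 is in both target lists. Skil, Smad6, Smad7 and Smad9 are also among the SMADs and regulators, and Bambi is among the receptors. Of the marker lists, that of fibroblasts also holds Col1a1, that of pericytes and smooth muscle cells Acta2 and Tagln, and that of Mueller glia Hes1. Cdkn1a, which encodes p21, a brake on the cell cycle, was at 28.7, 79.9 and 49.99 CPM in Smad4-iECKO, against 15.8, 8.19 and 13.99 CPM in the Smad4f/f replicates 1, 2 and 3. The groups did not overlap and DESeq2 called it (adjusted p = 0.0276); Cdkn1a is also a target of p53. The collagen gene Col1a2 was at 44.0, 294.7 and 50.8 CPM in Smad4-iECKO, against 26.2, 17.4 and 25.4 CPM in the Smad4f/f replicates, and it is in the fibroblast list too. Ctgf, a matricellular gene also driven by YAP, was at 106.3 ± 34.7 CPM in Smad4-iECKO, against 37.6 ± 28.8 CPM in Smad4f/f. Of the BMP targets the smallest p went to Smad6, Gata6 (0.477 ± 0.572 and 2.35 ± 2.30 CPM) and Lfng (56.4 ± 20.2 and 35.3 ± 10.7 CPM). None of these was called by edgeR over all genes, and all edgeR adjusted p-values of both lists were 0.9999.

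The genes whose pattern over the 6 libraries was closest to a member were found by the root mean square difference of centred log2 CPM. For Inhbb they were Fam219a (0.096), Prss36 (0.132) and Pcdhb6 (0.133), and for Ltbp3 they were Amotl2 (0.105), the microglial complement gene C1qb (0.127) and Nxpe3 (0.135). For Tgfb2 they were Dph6 (0.044), Serinc5 (0.053) and Secisbp2l (0.053). Ltbp4 had less close neighbours, Megf6 (0.174), Tlr12 (0.202) and Usp43 (0.218), all 3 highest, like Ltbp4, in Smad4-iECKO replicate 2, and lowest in Smad4-iECKO replicate 1, where Ltbp4 was second lowest. A smaller difference is easier to reach for a gene that varies little, as Tgfb2 does.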

How the data were processed

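Per the labels' protocols, 6 bulk RNA-seq libraries were prepared with TruSeq RNA v2 reagents, which do not mark strand. The submitters' processing notes name STAR, DESeq2 and mm10, without versions, and the counting step is not given in the sources used here. The authors deposited whole-number read counts per gene in 18 columns, 3 identical columns for each sample, of which 1 was used. Per the file headers, the authors' deposited comparison table holds a mean normalized signal, log2 fold changes with standard errors, a test score and p-values with adjusted p-values. It names no direction. Its log2 fold changes had the sign of Smad4-iECKO over Smad4f/f in 97.5% of genes, against a fit on the counts.

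Genes were tested by the quasi-likelihood F-test of edgeR 4.0.16 in R 4.3.3, with TMM scaling, no covariate, filterByExpr (minimum count 10, minimum total 15) and Benjamini-Hochberg adjustment over all genes tested, with a threshold of 0.05. Standard errors were taken as the absolute log2 fold change over the root of F. As alternatives, DESeq2 1.42.0 and limma 3.58.1 (voom) were used. Each was tested on simulated counts with known changes. Groups came from the genotype label, and replicate numbers follow accession order and pair no samples. Total counts ran from 2233360 to 23164952.

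All 10 members are named, with the 3 genes of smallest p from each of 7 pathway lists, Smad4, and the 3 genes closest to each of 4 members (the ligand and binder with the smallest p and, of the rest, the highest mean CPM). Txndc5, Gdf2 and Bmp10 were added after their values were seen. Some results are not reported here. The members, the pathway lists and the 11 cell type marker lists were chosen with earlier results of these data known. Coordinates and exon lengths are from GENCODE M21 (mm10), promoters from RefSeq (GRCm38.p6). Figures were drawn with matplotlib 3.10.9.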

Additional observations from a re-analysis of the deposited data

How the results depend on the processing

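Each value was recomputed under 16 alternatives, which gave 160 values for the 10 members. Of these, 143 kept their direction and their side of the threshold, 3 were called where edgeR had not called them, and 14 changed sign. The number of members called was 3 and that of all genes 2235 with DESeq2 on all 18 columns, and all genes called were 12 with DESeq2 and 8 with limma-voom with quality weights, against 0; without each library in turn both counts were 0 (range 0 to 0). Signs changed as follows. With title prefix 38 only, Tgfb1 was at -0.048, Bmp2 at -0.064 and Ltbp4 at -1.40. Scaled to the endothelial list, Tgfb2 was at -0.38 and Ltbp4 at -0.098, beside a median of all genes of -0.35. With limma-voom and quality weights, Tgfb2 was at -0.0016 and Ltbp4 at -1.09, and Inhbb was at 0.24, Tgfb1 at 0.21, Ltbp3 at 0.36 and Tgfb3 at 0.30, against 0.92, 0.87, 0.79 and 0.63 with edgeR. With the title prefix as a replicate block, Ltbp4 was at -0.25; the block changed no call. Without 1 library in turn, log2 fold changes ran from -0.15 to 0.13 for Tgfb2, -0.13 to 1.11 for Bmp2, -0.42 to 0.093 for Ltbp1 and -1.01 to 0.45 for Ltbp4. The cause of these sign changes was not tested. Replicate numbers follow accession order and were not used for pairing. With 3 libraries per group, standard errors of the 10 log2 fold changes were 0.28 to 0.94, and 2233360 counts in Smad4-iECKO replicate 2 limit the BMP genes most. Ltbp3, Tgfb3, Inhbb, Bmp4 and Bmp6 were above 0 in all 16.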
